A study of Homo sapiens with 6 samples.

Results

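The HOX cluster genes are the homeobox genes of the HOXA, HOXB, HOXC and HOXD clusters. They were chosen here by symbol, as every row of the count table named HOX followed by A, B, C or D and a number, which gave 36 of the 34811 genes in the table: 11 of HOXA, 8 of HOXB, 8 of HOXC and 9 of HOXD. The annotation used here holds 39 such genes, and the other 3 were not analysed here. RNA-seq was used to compare 2 stable derivatives of OVCAR-3, an established human ovarian carcinoma cell line, and the question was how gene expression differs when COX-1, the prostaglandin synthase encoded by PTGS1, is knocked down. OV3/COX1KD cells carried a pRS shRNA HuSH-29 plasmid against COX-1 and OV3/SCR cells the same plasmid with a scrambled shRNA, and both had been selected with puromycin and grown in RPMI-1640 with 10% FBS without further treatment. Each condition was 1 clone, OV3/COX1KD clone #2 and OV3/SCR clone #1, sampled at 3 passages, so a difference between clones and an effect of the knockdown cannot be told apart, and p-values measure only the spread between passages.

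HOX genes encode homeodomain transcription factors that specify position along the head-to-tail axis of the embryo. Within a cluster they lie in the order in which they are switched on, with low-numbered genes at the anterior end of the order and high-numbered genes at the posterior end, and genes with the same number in different clusters are paralogs that can act redundantly. In the female reproductive tract HOXA9, HOXA10, HOXA11 and HOXA13 pattern the Müllerian duct into oviduct, uterus, cervix and upper vagina, and Müllerian-like forms of ovarian carcinoma can express some of these genes. HOX proteins bind DNA together with TALE homeodomain partners, and Polycomb complexes, MLL complexes and retinoic acid act on the clusters.

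The libraries held 25291505 to 27391538 counts. TMM scaling factors differed by condition, at 1.04, 1.02 and 1.02 in OV3/SCR and 0.970, 0.977 and 0.974 in OV3/COX1KD. Counts are given as deposited. CPM is the count scaled to a common library size by the TMM factors, and the floor of detection, 3 counts, corresponded to 0.113 to 0.120 CPM and covers counting error only. PTGS1, the targeted gene, gave 713, 658 and 641 counts in OV3/SCR and 456, 486 and 501 in OV3/COX1KD. Every OV3/COX1KD library was below every OV3/SCR library (log2 fold change -0.45 ± 0.057 SE, FDR 1.3e-06), as the labels say. All 13 epithelial and Müllerian markers checked were above the floor in every library. Their summed level was higher in OV3/COX1KD (7909 to 8116 CPM) than in OV3/SCR (6010 to 6074 CPM), with 10 of them higher and PAX8 and KRT7 lower. Of 11 markers of blood, endothelial and fibroblast cells in the table, 5 were above the floor in every library and 2 were at or under it in all, and their summed level was 13.4 to 14.6 CPM in OV3/SCR and 9.12 to 10.3 CPM in OV3/COX1KD. The part of these shifts in the HOX values was not tested, and in a bulk sample fewer cells expressing a marker and less of its RNA per cell cannot be told apart.

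Of the 36 HOX genes, 32 passed the filter on low counts and were tested with edgeR (quasi-likelihood F test), the FDR being the Benjamini-Hochberg value over all 17309 genes tested. At an FDR under 0.01, 8 were higher in OV3/COX1KD (HOXA10, HOXB2, HOXC8, HOXD8, HOXD9, HOXD10, HOXD11 and HOXD13), 3 were lower (HOXA9, HOXB3 and HOXB9) and 21 had no call. The share called, 34.4%, was below the 47.9% of all genes tested, of which 25.8% were higher and 22.1% lower. The tested HOX genes were expressed at a lower level than most, with a median of 2.00 CPM against 15.4 CPM over all genes tested, and 75.0% of them against 35.5% of all genes lay under 5 CPM. The median log2 fold change was 0.046 for the tested HOX genes and -0.0087 for all genes, and the median size of the change was 0.32 and 0.28. A fold change above 1.5 was passed by 5 of the HOX genes called higher (HOXA10, HOXD9, HOXD10, HOXD11 and HOXD13) and by 2 called lower (HOXA9 and HOXB9), where 7.96% and 8.37% of all genes tested passed it. In 18 of the 32 tested HOX genes the libraries of the 2 conditions did not overlap, against 63.2% of all genes. When libraries were scaled by their total counts alone, without the TMM correction for composition, the calls over all genes turned from 4473 higher and 3820 lower to 3466 higher and 4978 lower. The median shift in log2 fold change from the TMM values was then -0.078.

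By cluster, HOXD had 5 of 8 tested genes higher and 0 lower, HOXA had 1 of 11 higher and 1 lower, HOXB had 1 of 7 higher and 2 lower, and HOXC had 1 of 6 higher and 0 lower. By position, 5 of the 14 tested genes of paralog groups 9 to 13 were higher and 2 lower, against 2 of 11 higher and 0 lower in groups 4 to 8 and 1 of 7 in each direction in groups 1 to 3. Those higher in groups 9 to 13 were HOXA10 and the HOXD genes HOXD9, HOXD10, HOXD11 and HOXD13, so this count largely repeats that of HOXD. Those lower were HOXA9 and HOXB9. Over all genes tested, 25.8% were higher and 22.1% lower. In edgeR 0 genes of HOXD, of HOXC or of groups 4 to 8 were lower at an unadjusted p under 0.05, and DESeq2 called 0 of them lower. These counts are a description and the differences between clusters were not tested.

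**Figure D1:**
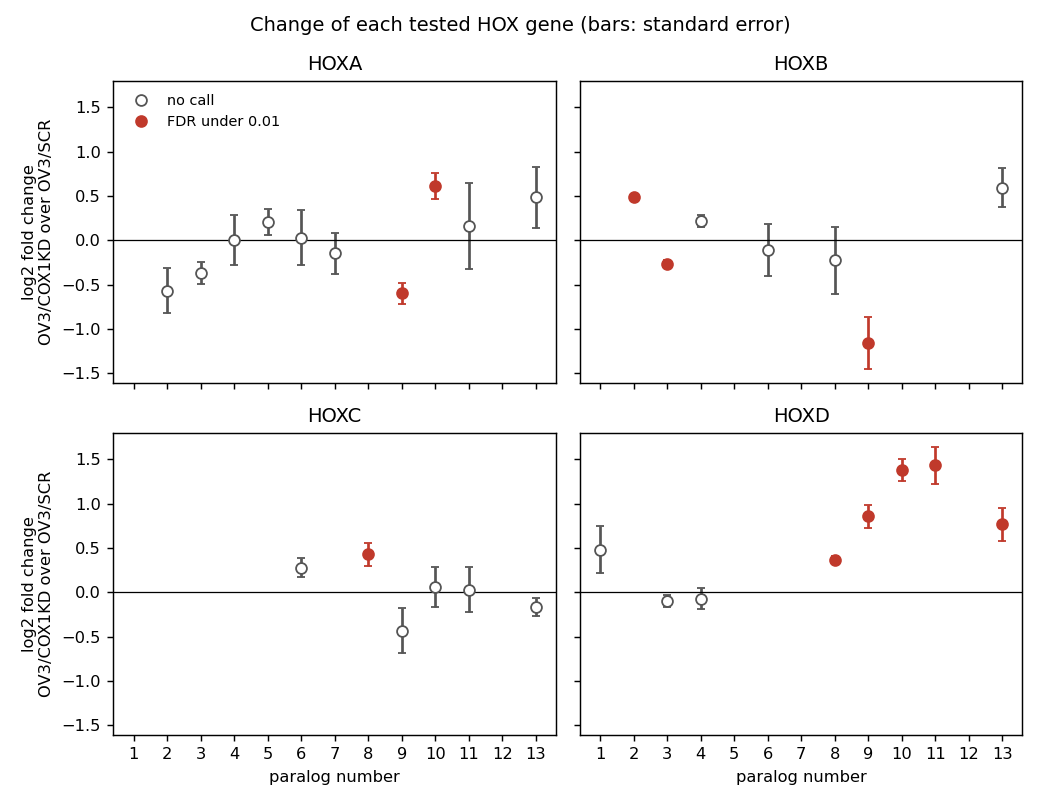
Log2 fold change of OV3/COX1KD over OV3/SCR (y axis, bars are the standard error) against paralog number (x axis) for the tested HOX genes reported here, 1 panel per cluster, with filled red points at an FDR under 0.01. HOXD8, HOXD9, HOXD10, HOXD11 and HOXD13 lie above 0 and reach 1.43 at HOXD11. HOXD1 lies at 0.48 without a call, HOXD3 and HOXD4 lie within 0.10 of 0, and HOXA9 and HOXB9 lie below 0.

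HOXD8, HOXD9, HOXD10, HOXD11 and HOXD13 were the 5 HOXD genes called higher. The RefSeq promoters of 4 of them, 250 bases before to 50 after the annotated start, are shown because these genes of 1 cluster rose together, and the windows are annotated starts, which were not checked in these cells. All are on the plus strand of chromosome 2 in GRCh38.p14, at chr2:176092471-176092770 for HOXD13, chr2:176107030-176107329 for HOXD11, chr2:176116528-176116827 for HOXD10 and chr2:176129455-176129754 for HOXD8. Capitals mark TATAAA or its reverse complement (overlapping matches on both strands) in HOXD13, and a match to TGATTNAT, a HOX-PBX type motif, on the reverse strand in HOXD11.
HOXD13: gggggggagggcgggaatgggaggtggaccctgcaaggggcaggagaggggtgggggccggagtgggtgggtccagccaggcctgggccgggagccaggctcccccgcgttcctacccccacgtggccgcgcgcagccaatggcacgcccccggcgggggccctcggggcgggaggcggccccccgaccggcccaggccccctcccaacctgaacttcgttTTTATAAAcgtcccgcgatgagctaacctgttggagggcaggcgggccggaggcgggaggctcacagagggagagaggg
HOXD11: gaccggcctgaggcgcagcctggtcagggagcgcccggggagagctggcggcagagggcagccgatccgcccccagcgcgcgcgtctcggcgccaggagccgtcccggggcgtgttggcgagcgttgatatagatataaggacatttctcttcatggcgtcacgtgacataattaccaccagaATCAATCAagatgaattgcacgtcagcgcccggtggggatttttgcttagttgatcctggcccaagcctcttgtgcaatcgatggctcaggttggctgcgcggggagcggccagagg
HOXD10: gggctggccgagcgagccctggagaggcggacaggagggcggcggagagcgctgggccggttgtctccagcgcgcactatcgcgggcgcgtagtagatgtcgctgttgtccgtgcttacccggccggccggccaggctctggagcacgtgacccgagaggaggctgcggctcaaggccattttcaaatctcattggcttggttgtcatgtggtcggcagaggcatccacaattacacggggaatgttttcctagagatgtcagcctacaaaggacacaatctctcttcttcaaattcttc
HOXD8: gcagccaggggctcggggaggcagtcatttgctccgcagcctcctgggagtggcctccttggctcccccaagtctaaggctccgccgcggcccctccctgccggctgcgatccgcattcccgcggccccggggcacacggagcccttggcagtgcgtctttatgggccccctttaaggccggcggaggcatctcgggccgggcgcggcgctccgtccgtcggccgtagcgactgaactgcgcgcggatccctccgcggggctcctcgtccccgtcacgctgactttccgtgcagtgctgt

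The 26 RefSeq promoters of 19 HOX genes of the count table included no HOXB gene and not HOXD9. HOXA3 had several, and HOXC4 and HOXC5 had the same one, so counts over them are not shares of HOX genes. TATAAA on either strand was found in 5 of the 26, against 11.5% of 35116 promoters of the same length. In HOXD13 the matches began 29 and 27 bases before the start, the usual place of a TATA box. TGATTNAT was found in 2 HOX promoters, those of HOXA2 and HOXD11, against 2.82% of all promoters. AGGTCA, the repeat unit of retinoic acid response elements, was in 0 of the 26 and in 13.8% of all promoters. CG dinucleotides numbered 24, 27, 23 and 34 in the windows of HOXD13, HOXD11, HOXD10 and HOXD8. The other HOXD windows held 36 (HOXD1), 25 (HOXD3), 4 (HOXD4) and 19 (HOXD12), so the genes called higher were not set apart. The median was 23 over the HOX promoters and 14 over all promoters. A match to these letters is a description of the window and not a bound site.

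HOXD8, HOXD9, HOXD10, HOXD11 and HOXD13 lie in that order away from the anterior end of the cluster, which spans chr2:176957449-177055635 in GRCh37 from HOXD13 to HOXD1. HOXD10 (ENSG00000128710), a patterning gene of lumbar motor neurons and the limb, had 67, 64 and 67 counts in OV3/SCR and 181, 164 and 158 in OV3/COX1KD. The libraries of each condition lay close together and far from those of the other (2.52 ± 0.068 against 6.56 ± 0.631 CPM, SD, n = 3; log2 fold change 1.38 ± 0.13 SE, FDR 1.3e-08). HOXD11 (ENSG00000128713), which acts with HOXA11 in the forearm and the kidney, had 27, 22 and 17 counts in OV3/SCR and 59, 52 and 64 in OV3/COX1KD. Its lowest OV3/COX1KD library held more reads than its highest OV3/SCR library (log2 fold change 1.43 ± 0.21 SE, FDR 7.4e-06). HOXD10 and HOXD11 were the 2 HOX genes with a fold change above 2.5, the limit used in the study, which 1.58% of all genes tested passed upwards. HOX genes past that limit downwards numbered 0, against 2.34% of all genes. With OV3/SCR replicate 3 left out, HOXD11 fell just short of the fold change of 2.5 (log2 fold change 1.29). With OV3/COX1KD replicate 1 left out, HOXD10 did so (log2 fold change 1.31), and each time 1 gene stayed past it. In the annotation, 452 exon bases are common to HOXD10 and HOXD11, 18.2% and 21.4% of their exons, and reads from that stretch cannot be told apart.

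HOXD9, a posterior gene whose exons are shared with no other annotated gene, had 79, 75 and 79 counts in OV3/SCR and 138, 150 and 125 in OV3/COX1KD. All OV3/COX1KD libraries were higher, by 1.81-fold (log2 fold change 0.86 ± 0.13 SE, FDR 1.1e-05). HOXD13, which patterns digits and the genital tubercle, had 32, 44 and 33 counts in OV3/SCR and 59, 65 and 58 in OV3/COX1KD. The groups did not overlap (log2 fold change 0.77 ± 0.19 SE, FDR 0.0016), but its FDR rose to 0.0121 without OV3/SCR replicate 1 and to 0.0106 without OV3/SCR replicate 3. HOXD12, between HOXD13 and HOXD11, had 2, 0 and 0 counts in OV3/SCR and 3, 1 and 0 in OV3/COX1KD. It was at or under the floor in every library, so no fold change is given.

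HOXD8, the most abundant HOXD gene, had 1036, 1047 and 967 counts in OV3/SCR and 1289, 1192 and 1371 in OV3/COX1KD. It was higher in every OV3/COX1KD library (1.29-fold, log2 fold change 0.37 ± 0.046 SE, FDR 1.2e-06). Other annotated genes share 24.4% of its exon bases, and reads from these bases cannot be told apart. The HOXD9 to HOXD8 ratio of counts, at 0.0763, 0.0716 and 0.0817 in OV3/SCR and 0.107, 0.126 and 0.0912 in OV3/COX1KD, was higher in every OV3/COX1KD library too. HOXD3, which patterns the cervical vertebrae, had 460, 481 and 444 counts in OV3/SCR and 400, 448 and 418 in OV3/COX1KD. Its groups overlapped and it had no call (log2 fold change -0.10 ± 0.067 SE, FDR 0.222). HOXD4 (log2 fold change -0.07, FDR 0.627) and HOXD1 (0.48, FDR 0.131) had no call either, and 60.1% of the exon bases of HOXD1 are shared with other genes. The summed level of HOXD9 to HOXD13 was 7.74 ± 0.144 CPM in OV3/SCR and 16.6 ± 1.25 CPM in OV3/COX1KD (SD, n = 3). These genes made up 11.1% of HOXD counts in OV3/SCR and 18.8% in OV3/COX1KD.

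**Figure D2:**
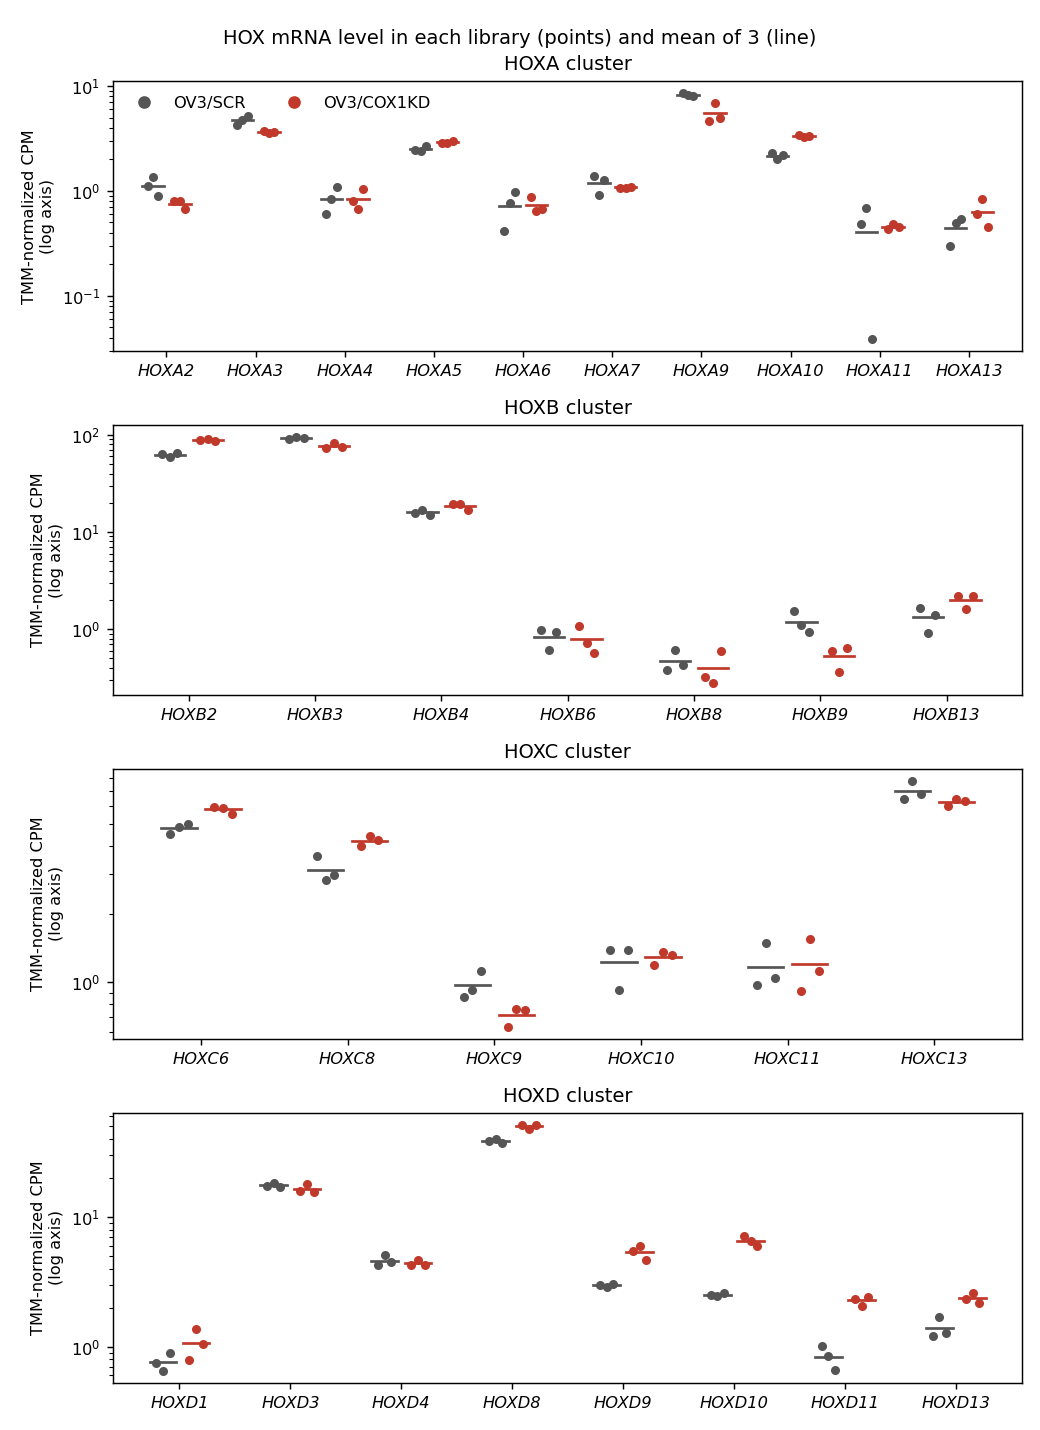
TMM-normalized CPM (log axis) of the tested HOX genes reported here in the 3 OV3/SCR libraries (grey points) and the 3 OV3/COX1KD libraries (red points), with a line at each mean and 1 panel per cluster. HOXB2 and HOXB3 are highest, the points of HOXD9 to HOXD13 are set apart by condition, and HOXA11 has 1 OV3/SCR library far below the others.

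In the HOXA cluster (chr7:27139973-27239710 in GRCh37 from HOXA2 to HOXA13), neighbouring genes moved in opposite directions. HOXA9, expressed in the oviduct end of the Müllerian tract, had 227, 216 and 209 counts in OV3/SCR and 116, 173 and 133 in OV3/COX1KD. Every OV3/COX1KD library was lower, with a wider spread between them than between the OV3/SCR libraries (8.30 ± 0.215 against 5.50 ± 1.23 CPM, SD, n = 3; log2 fold change -0.59 ± 0.12 SE, FDR 0.00027). HOXA10, the uterine gene of the series, had 61, 52 and 57 counts in OV3/SCR and 85, 81 and 88 in OV3/COX1KD. Here every OV3/COX1KD library was higher (log2 fold change 0.61 ± 0.15 SE, FDR 0.0013). Both genes share exon bases with other annotated genes (26.3% of those of HOXA10), and counting can divide reads there.

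HOXA11 and HOXA13, the lower Müllerian genes, were near the bottom of what could be measured. HOXA11 had 13, 18 and 1 counts in OV3/SCR and 11, 12 and 12 in OV3/COX1KD. The third OV3/SCR library stood under the floor while the other 2 were not, and the log2 fold change ran from -0.36 to 0.76 as libraries were left out in turn. HOXA13 had 8, 13 and 14 counts in OV3/SCR and 15, 21 and 12 in OV3/COX1KD, and its groups overlapped (FDR 0.24). Differences in these 2 genes were not detectable at this depth. HOXA3, a gene of thymus and parathyroid development, had 113, 124 and 134 counts in OV3/SCR and 94, 89 and 98 in OV3/COX1KD. It did not overlap but missed the threshold (log2 fold change -0.37 ± 0.12 SE, FDR 0.0147), and passed it with total count scaling (FDR 0.0037). None of the other HOXA genes tested had a call. HOXA2, of the hindbrain and second pharyngeal arch, gave -0.57 (FDR 0.062) and HOXA5, of the lung, 0.21 (FDR 0.225), while HOXA4, HOXA6 and HOXA7 had log2 fold changes between -0.15 and 0.031.

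In the HOXB cluster (chr17:46618256-46806112), the most abundant genes were the anterior ones, which pattern the hindbrain. HOXB2 had 1676, 1554 and 1699 counts in OV3/SCR and 2209, 2261 and 2288 in OV3/COX1KD. It was higher in every OV3/COX1KD library (62.8 ± 3.05 against 88.0 ± 2.18 CPM, SD, n = 3; log2 fold change 0.49 ± 0.040 SE, FDR 3.1e-09). HOXB3, its neighbour, had 2417, 2468 and 2387 counts in OV3/SCR and 1851, 2077 and 1988 in OV3/COX1KD. It was lower in every OV3/COX1KD library (log2 fold change -0.27 ± 0.043 SE, FDR 2.3e-05). HOXB4, known for expanding blood stem cells, had 419, 441 and 389 counts in OV3/SCR and 488, 481 and 453 in OV3/COX1KD. The OV3/COX1KD libraries lay just above the others and the FDR of 0.0105 missed the threshold by little (log2 fold change 0.22 ± 0.069 SE), and it was called in 6 of 15 settings, among them without OV3/SCR replicate 2 (0.0087) or without OV3/COX1KD replicate 3 (0.0028).

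Among the posterior HOXB genes, HOXB9, a gene of the thoracic skeleton and mammary gland, had 41, 29 and 24 counts in OV3/SCR and 15, 9 and 17 in OV3/COX1KD. It had the largest fall of any tested HOX gene (2.23-fold, log2 fold change -1.16 ± 0.29 SE, FDR 0.0021), and without OV3/SCR replicate 1 it gave -0.93 with an FDR of 0.0231. HOXB13, a gene of prostate and hindgut development, had 44, 24 and 36 counts in OV3/SCR and 55, 40 and 59 in OV3/COX1KD. Its groups overlapped (log2 fold change 0.60 ± 0.22 SE, FDR 0.0258), and it was called in 4 of 15 settings, with no filter on low counts (0.0089), with GC and length offsets (0.0096), with those offsets and the replicate block (0.0055) and without OV3/COX1KD replicate 2 (0.0028). HOXB6 (26, 16 and 24 counts against 27, 18 and 15) and HOXB8 (10, 16 and 11 against 8, 7 and 16) overlapped and had no call. HOXB5 (5, 5 and 11 against 2, 12 and 7) did not pass the filter.

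In the HOXC cluster (chr12:54332615-54449814) the only call was HOXC8, a gene of the thoracic vertebrae. It had 96, 74 and 77 counts in OV3/SCR and 101, 111 and 113 in OV3/COX1KD, with the lowest OV3/COX1KD library just above the highest OV3/SCR library (log2 fold change 0.43 ± 0.13 SE, FDR 0.0096). This call was at the threshold and was made in 6 of 15 settings, being lost among others in DESeq2 (0.0388), with total count scaling (0.0309) and with any of 5 of the 6 libraries left out, OV3/SCR replicate 1 being the exception. HOXC6, a mammary gland gene, had 120, 126 and 130 counts in OV3/SCR and 150, 148 and 148 in OV3/COX1KD, and did not pass (log2 fold change 0.28 ± 0.11 SE, FDR 0.0306). HOXC13, a regulator of hair and nail keratins, was the most abundant HOXC gene, with 172, 202 and 176 counts in OV3/SCR and 151, 161 and 169 in OV3/COX1KD. It had no call (log2 fold change -0.16 ± 0.10 SE, FDR 0.173), and neither had HOXC9 (-0.43, FDR 0.154), HOXC10 (FDR 0.83) or HOXC11 (FDR 0.923). HOXC4, at 0, 0 and 2 counts against 3, 0 and 2, was at or under the floor in all libraries, and HOXC5 had 1 library above it, at 2, 2 and 1 counts against 4, 0 and 2.

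Levels of different genes were compared as CPM per kilobase of exon. The order of the 5 highest genes was the same in both conditions, HOXB2, HOXD8, HOXB3, HOXB4 and HOXD3. HOXB2 stood at 25.5 ± 1.24 in OV3/SCR and 35.8 ± 0.888 CPM per kilobase in OV3/COX1KD (SD, n = 3), and HOXD8 at 14.8 ± 0.528 and 19.1 ± 0.829. HOXB3 stood at 12.5 ± 0.273 and 10.4 ± 0.688, HOXB4 at 7.94 ± 0.475 and 9.26 ± 0.662 and HOXD3 at 4.77 ± 0.194 and 4.46 ± 0.327. These were the 5 highest also when exon bases shared with other genes were left out of the lengths. HOXD4 followed at 4.06 ± 0.369 in OV3/SCR, and HOXC13 (2.97 ± 0.285) and HOXA9 (2.74 ± 0.071) came next with overlapping libraries. In OV3/COX1KD HOXA9 stood at 1.81 ± 0.405, below HOXD9 at 2.88 ± 0.349 and HOXD10 at 2.63 ± 0.254, which in OV3/SCR had stood at 1.58 ± 0.048 and 1.01 ± 0.027.

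**Figure D3:**
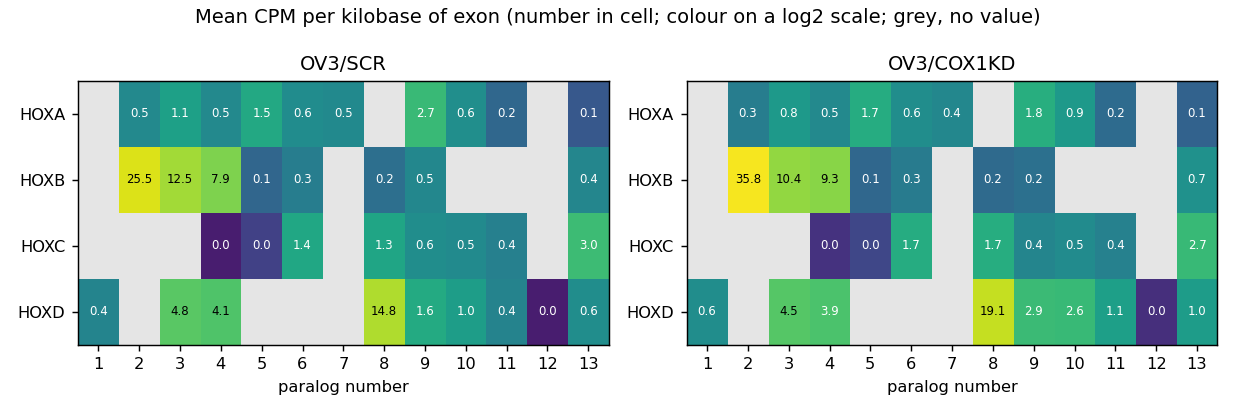
Mean CPM per kilobase of exon (number in each cell, colour on a log2 scale) by cluster (rows) and paralog number (columns) in OV3/SCR (left) and OV3/COX1KD (right), with grey cells where there is no value. The anterior HOXB genes and HOXD8 are brightest in both panels, and HOXC4, HOXC5 and HOXD12 are near 0.

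Over the 36 genes, the summed HOX level was 288 ± 3.18 CPM in OV3/SCR and 318 ± 9.82 CPM in OV3/COX1KD (SD, n = 3). HOXB held 60.9% and 59.0% of HOX counts, HOXD 24.2% and 27.9%, HOXA 8.54% and 6.90%, and HOXC 6.39% and 6.18%. HOXB2 and HOXB3 alone made up 54.0% and 51.9% of HOX counts. Counts weigh long genes more. Of HOX CPM per kilobase of exon, HOXB held 52.1% and 52.6%, HOXD 30.2% and 32.9%, HOXA 9.84% and 7.57%, and HOXC 7.85% and 6.93%. The lower share of HOXB in OV3/COX1KD was thus seen in counts and not per kilobase.

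Ratios of counts between 2 HOX genes within 1 library do not depend on how libraries are scaled. The HOXA10 to HOXA9 ratio was 0.269, 0.241 and 0.273 in OV3/SCR and 0.733, 0.468 and 0.662 in OV3/COX1KD. The HOXB2 to HOXB3 ratio was 0.693, 0.630 and 0.712 in OV3/SCR and 1.19, 1.09 and 1.15 in OV3/COX1KD, so HOXB3 had more counts than HOXB2 in every OV3/SCR library and fewer in every OV3/COX1KD library. Per kilobase of exon, HOXB2 was above HOXB3 in both conditions. Between paralogs of group 9, the HOXD9 to HOXA9 ratio was 0.348, 0.347 and 0.378 in OV3/SCR and 1.19, 0.867 and 0.940 in OV3/COX1KD. Paralog group 9 thus changed in both directions, with HOXA9 and HOXB9 lower, HOXD9 higher and HOXC9 without a call. In group 10, HOXA10 and HOXD10 were both higher, and the HOXD10 to HOXA10 ratio was 1.10, 1.23 and 1.18 in OV3/SCR and 2.13, 2.02 and 1.80 in OV3/COX1KD. Within HOXD, the HOXD10 to HOXD3 ratio was 0.146, 0.133 and 0.151 in OV3/SCR and 0.453, 0.366 and 0.378 in OV3/COX1KD. No ratio given here overlapped between the conditions, but each pairs genes with unlike log2 fold changes, the larger on top. The separation therefore follows largely from values already given and is no further evidence of a change.

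**Figure D4:**
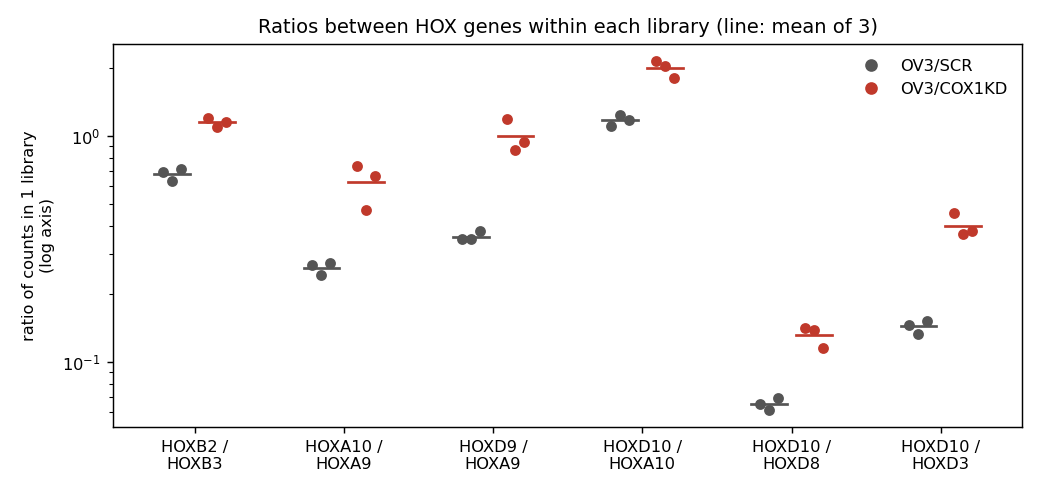
Ratio of counts between pairs of HOX genes in each library (log axis) for OV3/SCR (grey) and OV3/COX1KD (red), with a line at the mean of 3. Each of the 6 ratios is higher in all 3 OV3/COX1KD libraries, and HOXB2 to HOXB3 passes from under 1 (mean 0.678) to over 1 (mean 1.14). Counts are not scaled for exon length, and per kilobase of exon HOXB2 was above HOXB3 in both conditions. The gene with the larger log2 fold change is on top in each pair, so the direction was set by that choice.

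The count table held 16 non-coding RNA genes of the clusters, of which 10 could be tested. Of these 1 was higher and 0 were lower (10.0% called, against 47.9% of all genes tested), with 0 lower in DESeq2 or at an unadjusted p under 0.05 in edgeR. The 10 tested lay at 0.394 to 10.3 CPM on average in OV3/SCR, under the median of 15.4 CPM over all genes tested, and the part of level in this share was not tested. HOXD-AS1, also called HAGLR and read from the anterior end of HOXD, had 226, 223 and 227 counts in OV3/SCR and 270, 285 and 296 in OV3/COX1KD, a rise in every library (log2 fold change 0.36 ± 0.078 SE, FDR 0.0005). HOTAIR, the HOXC transcript linked to Polycomb recruitment, had 42, 36 and 30 counts in OV3/SCR and 30, 35 and 44 in OV3/COX1KD, which overlapped. HOTAIRM1, at the anterior end of HOXA, had 125, 137 and 125 against 106, 122 and 98 and no call. HOTTIP, at the posterior end of HOXA, had 1, 1 and 4 counts against 0, 0 and 0 and was not tested. The TruSeq RNA kit named in the labels does not mark strand, so reads where a HOX gene and an antisense gene overlap cannot be told apart.

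Genes flanking the clusters were examined in the same fit. The 5 nearest protein-coding genes on each side of each cluster made 40 genes, of which 39 were in the table and 35 tested, and 19 were higher and 3 lower (54.3% and 8.57%, against 25.8% and 22.1% of all genes tested). They lay up to 1358 kb from a cluster. Several were abundant, such as HNRNPA1 (526 CPM in OV3/SCR) and CBX3 (318 CPM), against a median of 15.4 CPM over all genes tested. Some calls were small, such as NFE2L1 (log2 fold change 0.10) and CBX3 (0.14). DESeq2 called 16 of the flanking genes in place of 22, and 7143 genes in all in place of 8293. The part of level in the share was not tested. Beside HOXD13, EVX2 was at or under the floor, and KIAA1715, the next gene beyond it, had 1053, 973 and 993 counts in OV3/SCR and 867, 836 and 916 in OV3/COX1KD (log2 fold change -0.17 ± 0.046 SE, FDR 0.0030). MTX2, beyond HOXD1, had no call (0.053). The largest rises among flanking genes were NFE2 (0.81), TTC30B (0.74) and HIBADH (0.63), and the largest fall was CREB5, a transcription factor gene beyond HOXA, with 736, 828 and 733 counts in OV3/SCR and 162, 204 and 177 in OV3/COX1KD (-2.05 ± 0.083 SE, FDR 6.5e-14), followed by CHN1 (-0.70). Among homeobox relatives of the HOX class, 7 were in the table and 2 tested. MEOX1, a somite gene, was higher (0.32, FDR 1.6e-08), and MNX1, with 8, 7 and 11 counts against 13, 19 and 20, did not pass (1.02, FDR 0.0148).

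Of the 7 tested TALE cofactors reported here, 2 were higher and 1 lower, a share of 42.9% called against 47.9% of all genes. MEIS3 had 330, 349 and 339 counts in OV3/SCR and 523, 536 and 553 in OV3/COX1KD (log2 fold change 0.69 ± 0.062 SE, FDR 1.0e-08), and MEIS2 had 374, 368 and 362 against 567, 564 and 525 (0.62 ± 0.066 SE, FDR 1.4e-07). Both genes encode partners that bind beside HOX and PBX proteins, and neither overlapped between conditions. PBX3 was lower (-0.22, FDR 0.0033), but that call was lost in DESeq2 (0.0152), with no filter on low counts (0.0127), and with 1 library left out, namely OV3/SCR replicate 1 (0.0207), OV3/SCR replicate 3 (0.0169), OV3/COX1KD replicate 1 (0.0138) or OV3/COX1KD replicate 3 (0.0145). MEIS1, PBX2 and PBX4 had no call, and neither had PKNOX1, which passed with no filter on low counts (0.0080) and without OV3/COX1KD replicate 2 (0.00997).

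Retinoic acid switches on anterior HOX genes in embryos, and 4 of 14 tested genes of its handling were higher and 3 lower (28.6% and 21.4%, close to the 25.8% and 22.1% of all genes tested). CYP26B1, which breaks retinoic acid down, had 41, 48 and 53 counts in OV3/SCR and 9, 7 and 7 in OV3/COX1KD (log2 fold change -2.58 ± 0.28 SE, FDR 1.4e-07). ALDH1A2, which makes it from retinaldehyde, had 24, 18 and 18 against 6, 5 and 7 (-1.68 ± 0.35 SE, FDR 0.00033), and DHRS3, which returns retinaldehyde to retinol, was lower as well (-0.49). ALDH1A2 and CYP26B1 were thus both lower, at few counts in OV3/COX1KD, and retinoic acid itself was not measured. With at least 10 counts required in every library, 5 genes of this list were called in place of 7. CRABP2 and CRABP1, the carrier proteins of retinoic acid, were higher, CRABP2 with 5292, 5476 and 5182 counts in OV3/SCR and 10866, 10757 and 11248 in OV3/COX1KD (1.07 ± 0.030 SE, FDR 3.5e-16) and CRABP1 by 0.81. The receptor genes RXRA (0.57) and RARG (0.14) were higher, and RARA, RARB and RXRB had no call.

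**Figure D5:**
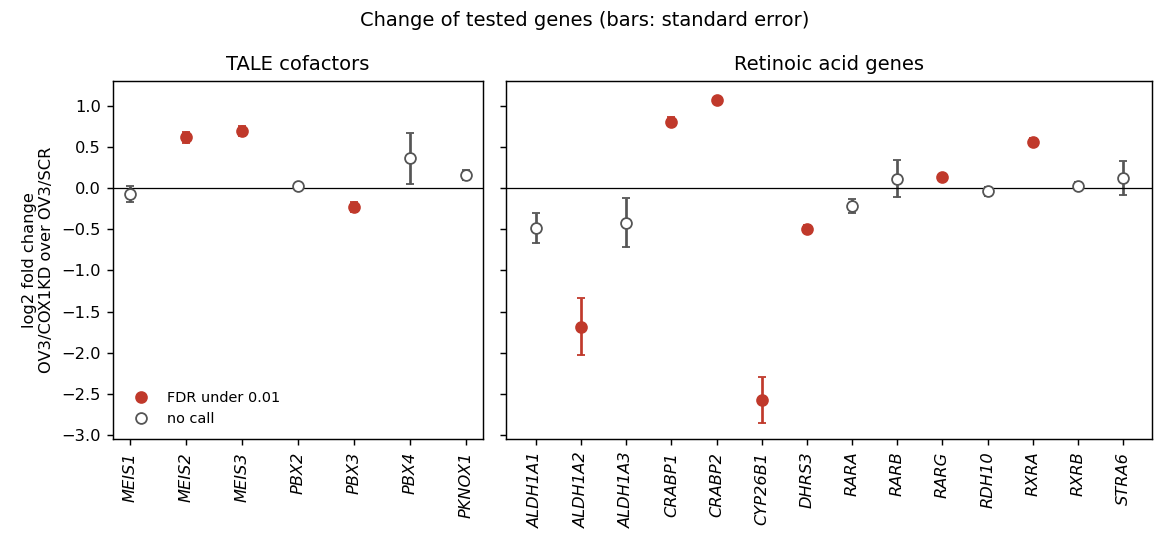
Log2 fold change of OV3/COX1KD over OV3/SCR (y axis, bars are the standard error) for the tested TALE cofactors (left) and retinoic acid genes (right), with filled red points at an FDR under 0.01. CYP26B1 is lowest at -2.58 and CRABP2 highest at 1.07.

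Polycomb complexes keep HOX clusters silent and MLL and DOT1L complexes keep them active. Of 27 tested Polycomb genes 5 were higher and 6 lower. CBX7 (0.59), PCGF5 (0.23) and CBX2 (0.23) rose most, and PHC1 (-0.54), PHF1 (-0.51) and PCGF3 (-0.36) fell most. EZH2, the methyltransferase of the complex, had no call. Of 17 tested MLL, DOT1L and H3K27 demethylase genes 4 were higher, led by PSIP1 (0.33), MLLT3 (0.27) and DPY30 (0.20), and 6 lower, led by MLL4 (-0.82), DOT1L (-0.51) and AFF1 (-0.48). None of these genes passed a fold change of 2.5, and the share called was 40.7% for the Polycomb list and 58.8% for the MLL and DOT1L list, against 47.9% of all genes.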

How the data were processed

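RNA-seq was carried out on 3 OV3/SCR and 3 OV3/COX1KD libraries. Reads had been aligned by the authors to hg19 (TopHat2, version 2.0 in the submitters' processing notes) and assigned to genes (HTSeq), and the deposited values are raw counts. The gene annotation and the counting mode were not given in the sources used here. Libraries were assigned to conditions by the labels.

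The main test was that of edgeR 4.0.16 under R 4.3.3 (TMM, filterByExpr, glmQLFit and glmQLFTest, condition as the only factor, Benjamini-Hochberg adjustment over 17309 genes, calls at an FDR under 0.01). The SE was the size of the log2 fold change divided by the square root of F. Library pairs of 1 condition differed by more than sampling noise (chi-square per degree of freedom 1.82 to 6.31). Coordinates and exon lengths came from GENCODE 44 lifted to GRCh37, and promoters from RefSeq on GRCh38.p14.

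The HOX genes and all lists were chosen with earlier results of these data known. Values by library are given for HOX genes called with a fold change above 1.5 and the 5 highest per kilobase, and other lists are named by their 3 largest rises and falls. HOX genes short of those limits, and values of genes named for their place, were added after their values were seen. Alternatives were RLE and total count scaling, 2 other filters, DESeq2 1.42.0, the replicate block, offsets for GC content and length, glmTreat, exon bases of no other gene and leaving out each library. Scripts were tested on simulated data. Some genes are not reported here.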

Additional observations from a re-analysis of the deposited data

How the results depend on the processing

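HOXA9, HOXA10, HOXB2, HOXB3, HOXD8, HOXD9, HOXD10 and HOXD11 kept their call in all 15 settings. The number of HOX genes higher ran from 6 to 10 and the number lower from 2 to 4. The count past a fold change of 2.5, 2 in the report, was 1 with total count scaling, 0 when glmTreat tested against that fold change, and 1 to 2 with a library left out. The labels mention replicate pairs but not what a pair shares, and the numbers were not treated as a pairing: deviations of same-numbered libraries correlated at -0.0032, 0.045 and 0.026 across genes, and OV3/SCR and OV3/COX1KD replicate 1 did not correlate best with each other. With the replicate number as a block, 8 HOX genes were higher and 3 lower and 8233 genes in all were called, with HOXC8 lost (FDR 0.0131) and HOXB4 gained (FDR 0.0067), both by edgeR. Genes without a call changed sign as follows, and the cause was not tested. With total count scaling HOXA4 gave -0.070, HOXA6 -0.047, HOXC10 -0.017 and HOXC11 -0.046. HOXA4 gave -0.0090 with at least 10 counts in every library and -0.0013 in DESeq2, and HOXD4 gave 0.021 with GC and length offsets, with and without the block. With a library left out, the log2 fold change ran from -0.36 to 0.76 for HOXA11, -0.19 to 0.23 for HOXA4, -0.25 to 0.31 for HOXA6, -0.39 to 0.094 for HOXB6, -0.65 to 0.011 for HOXB8, -0.11 to 0.16 for HOXC10, -0.19 to 0.25 for HOXC11 and -0.13 to 0.0027 for HOXD4. At this depth HOXC4 and HOXD12 were at or under the floor in every library.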
